A study of Mus musculus with 4 samples.

Results

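The genes of the smooth muscle contractile apparatus were followed as a set of 34 genes, out of 55203 genes in the files, in RNA-seq of mouse intestine. The members were picked out by gene symbol, from a list drawn up with earlier results of these data known, and the level of a gene was the sum over its transcripts. By class, 23 members are enriched in muscle, 8 are cytoskeletal genes expressed in most tissues, and 3 (Pcp4, Cacna1c and Dmd) are expressed in both muscle and nerve. A total of 33 members entered the comparison, and Pln was left out because its mean level was under 1 FPKM (fragments per kilobase of transcript, relative to all mapped fragments).

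All 4 libraries were made from wild-type C57BL/6NTac mice, adult males 8 to 12 weeks old kept in SPF (specific-pathogen-free) conditions. For the 2 libraries of the RVC group the label gives 4 mM ribonucleoside vanadyl complex, which inhibits ribonucleases. The other 2 libraries were labelled fresh frozen. The same protocol text, with an RVC rinse, was attached to every library, so the handling of the frozen tissue is known only from the label. Batch numbers differed between all 4 libraries, so the groups and the batches cannot be told apart and no value within a batch could be had. Nothing in the labels says that the libraries came from separate mice, so the p-values measure only the spread between these libraries. The stated purpose of the series was a bulk measurement to set beside imaging of transcripts in tissue.

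The labels named ileum as the tissue and the protocol named distal colon. The colon enzyme gene Car1 lay between 1576 and 1781 FPKM, whereas of 5 ileal genes Fgf15 and Apoa4 were listed at 0 in all 4 libraries and Apoa1 stayed at 0.0940 FPKM or less. The other ileal genes were low but present, with Fabp6 at 2.70 to 3.96 FPKM and Slc10a2 at 2.33 to 3.07 FPKM. Relative sequencing depth ran from 72.6% to 100% of the deepest library, and the number of fragments is unknown. All 8 markers listed for smooth muscle (Actg2, Acta2, Cnn1, Myh11, Des, Tagln, Lmod1 and Synm) were present above 1 FPKM in every library, and all 8 are themselves members. The myosins listed for skeletal and heart muscle were low, with Myh2 at 0.150 FPKM or less, Myh7 at 0.0976 or less, Myh1 at 0.0323 or less, Myh6 at 0.00688 or less and Myh4 at 0.00472 or less. Since the tissue was taken in bulk, fewer muscle cells and less RNA per muscle cell cannot be told apart.

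The gut wall moves its contents with sheets of smooth muscle. In such a cell, calcium entering through the membrane or released from the sarcoplasmic reticulum binds calmodulin, which switches on myosin light chain kinase, and the phosphorylated myosin then pulls on actin filaments. Myosin phosphatase reverses the step. The filaments are fixed to dense bodies and to the membrane by intermediate filaments, actinin, vinculin and the dystrophin complex. Many of these genes are driven by serum response factor (Srf) and its muscle partner myocardin (Myocd), which act at a short AT-rich element called the CArG box.

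CArG boxes are shown because they are what many of these genes are known to share in their promoters. Letters were read from GRCm39, the build of the files, in the 250 bases before the start of a single transcript per gene, as the files place it. The box (a motif of 10 bases known by that name) was found before 6 of the 34 members, or 17.6%, and before 136 of 11505 protein-coding genes tested, or 1.18%. A match to the motif is a match on both strands, although the letters of a single box can differ between strands. Those members were Actg2, Tagln, Srf, Myl9, Dmd and Ldb3. From the canonical starts of GENCODE vM39 the counts were 4 of 34 members, or 11.8% (Srf, Vcl, Tagln and Dmd), against 1.24% of the same genes. The Vcl start in the files belongs to a fragment of 446 nt inside the gene, so its window did not reach the canonical one. In the runs below, 5′ to 3′ on the strand of the gene, the capitals mark the box.
Tagln, chr9:45847429-45847498, minus strand: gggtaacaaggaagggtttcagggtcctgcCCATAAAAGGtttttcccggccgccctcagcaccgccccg
Srf, chr17:46867131-46867200, minus strand: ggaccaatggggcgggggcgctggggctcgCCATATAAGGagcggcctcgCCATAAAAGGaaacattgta
Actg2, farther box, chr6:83513296-83513325, minus strand: aaaaaaaacaCCTTATATGGtaatattgct
Actg2, nearer box, chr6:83513259-83513288, minus strand: cgtcagctggCCTTTTTAGGgactctgttt
Myl9, chr2:156617213-156617242, plus strand: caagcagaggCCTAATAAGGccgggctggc
The 5′ base of the box lay 112 bases before the start of Tagln, 69 and 49 before that of Srf, 68 and 31 before that of Actg2 and 117 before that of Myl9. The Tagln box and the nearer Srf box, CCATAAAAGG, were the same in all letters. The boxes of Actg2, Myl9 and Ldb3 fall inside exons of the GENCODE annotation, whose starts lie farther upstream. A match describes letters only, and no match says only that these letters are not in that window.

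The set as a whole lay higher in the RVC libraries, without any member passing the test. Of 33 members, 28 had a log2 fold change above 0 (RVC over fresh frozen), against 51% of all 13775 genes tested. In 25 members both RVC libraries exceeded both fresh-frozen libraries on scaled values, where 26.5% of all genes did so. In 3 members (Ldb3, Ryr2 and Ppp1r12a) both RVC libraries were lower, where 26.6% of all genes were, and in 5 (Nexn, Actn1, Pcp4, Cacna1c and Dmd) the groups overlapped. The median log2 fold change was 0.54 over the members and 0.0062 over all genes. A difference of at least 1.5-fold (0.58 on the log2 scale) in favour of RVC was reached by 14 members and by 2.26% of all genes.

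Groups were compared with limma on log2(FPKM + 1), a scale that understates fold changes of genes near 1 FPKM. With Benjamini-Hochberg adjustment over all genes, 0 of the 33 members and 0.0363% of all genes had an adjusted p under 0.05. The lowest adjusted p of a member in limma was 0.0741, for Pdlim7. At an unadjusted limma p under 0.05 there were 24 members, all higher in RVC, against 9.38% of all genes on that side and 18.4% on both. A block on sample number turned 6 members (Actg2, Cnn1, Des, Pdlim3, Ppp1r14a and Pdlim7) past the threshold, and without RVC 1 Pdlim3 passed. With the numbers crossed in the block, 0 members passed. The other 27 tested members passed under no alternative tried.

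**Figure D1:**
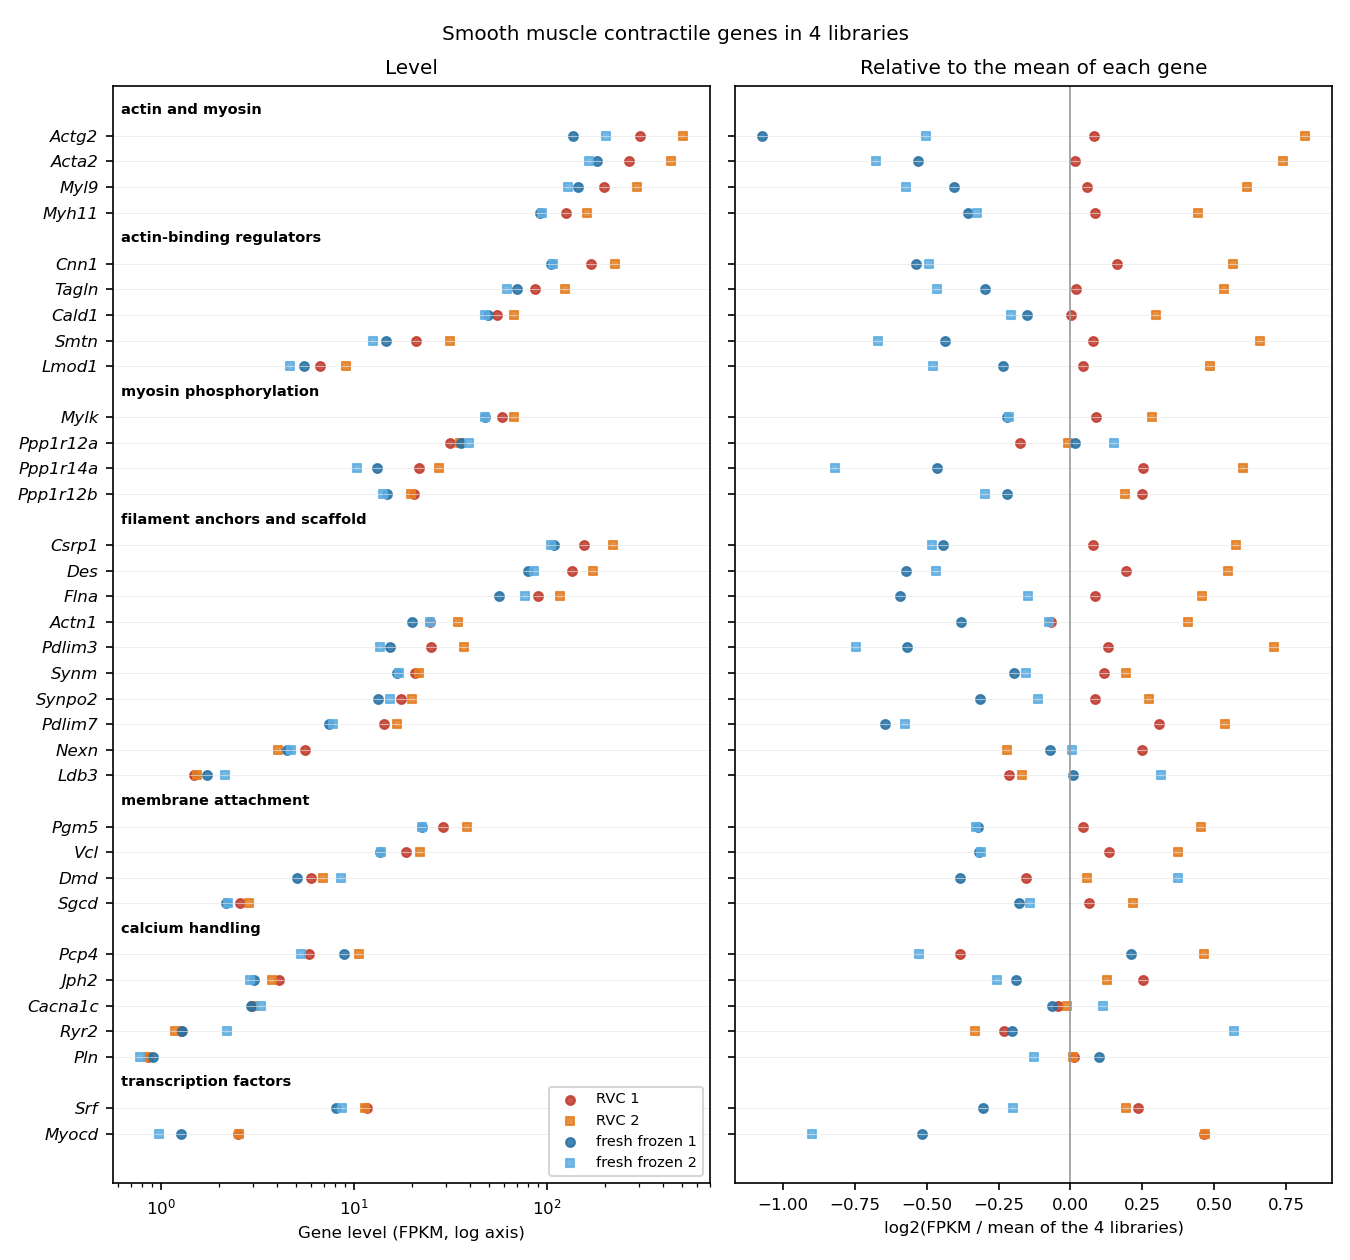
Deposited levels of the 34 members in FPKM on a log axis (left) and each library relative to the mean of the gene on the log2 scale (right), grouped by role, with 1 point per library. RVC 2 is the highest library for most abundant members, and the 2 fresh-frozen libraries lie below both RVC libraries for 25 members after scaling (Actn1 is the only further one on the deposited values plotted).

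The actins Actg2 and Acta2 had the highest mean levels of the members, followed by Myl9. Actg2 (ENSMUSG00000059430, chromosome 6, 83489887 to 83513247), the gamma actin of enteric smooth muscle, measured 305 FPKM in RVC 1 and 507 FPKM in RVC 2, against 137 FPKM in fresh frozen 1 and 203 FPKM in fresh frozen 2. RVC 2 stood farther above RVC 1 than RVC 1 stood above fresh frozen 2, and the groups did not overlap. The log2 fold change of Actg2 was 1.24 (SE 0.27), the largest of the 33, with a limma adjusted p of 0.129. Acta2 (ENSMUSG00000035783, chromosome 19, 34218490 to 34232990), the alpha actin of vascular and visceral smooth muscle, measured 266 and 440 FPKM in RVC and 182 and 165 FPKM in fresh frozen. Its log2 fold change was 0.98 (SE 0.22, limma adjusted p 0.130). Actg2 was the more abundant of these actins in both RVC libraries and in fresh frozen 2, and Acta2 in fresh frozen 1. Their coding sequences are nearly alike, and like those of Actb and Actg1, so reads shared between them make the split between these genes uncertain.

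Myh11, the heavy chain of smooth muscle myosin, measured 126 and 161 FPKM in RVC and 92.3 and 94.4 FPKM in fresh frozen, a log2 fold change of 0.61 (SE 0.14). Myl9, its regulatory light chain, measured 199 and 292 FPKM against 144 and 129, a log2 fold change of 0.82 (SE 0.18). For all 4 genes of this role RVC 2 was the highest library and the groups did not overlap, with a median log2 fold change of 0.90. Of all genes, 26.5% were higher in RVC without overlap. Their limma adjusted p-values lay between 0.129 and 0.132.

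The 5 actin-binding regulators also lay higher in both RVC libraries than in both fresh-frozen libraries, where 26.5% of all genes did so. Their median log2 fold change was 0.65. Calponin 1 (Cnn1), which binds actin and restrains the myosin ATPase, measured 170 and 225 FPKM in RVC against 105 and 108 in fresh frozen. The log2 fold change of Cnn1 was 0.88 (SE 0.15, limma adjusted p 0.119). Transgelin (Tagln), an actin cross-linker widely used as a smooth muscle marker, measured 86.9 and 124 FPKM against 69.8 and 62.3. Smoothelin (Smtn), found in contractile smooth muscle, measured 21.0 and 31.4 FPKM against 14.7 and 12.5, a log2 fold change of 0.88 (SE 0.19). For Cnn1 the fresh-frozen libraries were close together and RVC 2 stood above RVC 1, and Tagln and Smtn kept the same order of groups. Leiomodin 1 (Lmod1), which starts new actin filaments, was low, with 6.69 and 9.08 FPKM in RVC against 5.51 and 4.65 in fresh frozen. Caldesmon (Cald1), the widely expressed member of this role, had the smallest log2 fold change of the 5, 0.33 (SE 0.13), at 55.3 and 67.8 FPKM against 49.7 and 47.8.

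Myosin phosphorylation is set by a kinase and a phosphatase. Mylk, the gene of the kinase, measured 58.8 and 67.4 FPKM in RVC and 47.5 and 47.8 FPKM in fresh frozen. The log2 fold change of this sum was 0.40 (SE 0.11). The sum includes a short transcript for another protein, telokin, described below. The full kinase transcript alone measured 26.0 and 31.4 FPKM in RVC against 23.2 and 21.4 in fresh frozen, a log2 fold change of 0.34. Ppp1r14a, the inhibitor of the phosphatase known as CPI-17, measured 21.7 and 27.6 FPKM against 13.2 and 10.3. Its log2 fold change was 1.01 (SE 0.16, limma adjusted p 0.112). The gene sums of the phosphatase's targeting subunits went in different directions. Ppp1r12b, the gene of the subunit of striated and smooth muscle, measured 20.6 and 19.7 FPKM in RVC against 14.8 and 14.1 in fresh frozen. Most of that sum came from a short form of 186 codons. The 976-codon form measured 6.74 and 5.71 FPKM in RVC against 4.87 and 5.29 in fresh frozen, a log2 fold change of 0.24. Ppp1r12a, the subunit found in most tissues, measured 31.4 and 35.3 FPKM in RVC against 35.9 and 39.4 in fresh frozen, so both RVC libraries were the lower ones by a small margin (log2 fold change -0.17, SE 0.12, limma adjusted p 0.461).

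Among the 10 filament anchors and scaffold genes, 7 lay higher in both RVC libraries, 1 lower and 2 overlapped, with a median log2 fold change of 0.51. Of all genes, 26.5% were higher and 26.6% lower without overlap. Desmin (Des), the muscle intermediate filament, measured 135 and 172 FPKM in RVC and 79.5 and 85.4 FPKM in fresh frozen (log2 fold change 0.88, SE 0.14, limma adjusted p 0.114). Pdlim3, a PDZ and LIM protein that binds actinin, measured 25.0 and 37.4 FPKM against 15.4 and 13.6. Its log2 fold change of 1.03 (SE 0.18) was the second largest of the members. Its widely expressed relative Pdlim7 measured 14.3 and 16.8 FPKM in RVC and 7.39 and 7.77 FPKM in fresh frozen. The log2 fold change of Pdlim7 was 0.95 (SE 0.13), and for this gene the libraries within each group were close and the groups well apart.

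Csrp1, a LIM protein of the dense body and of the nucleus, measured 156 and 219 FPKM in RVC against 108 and 106 in fresh frozen. Filamin A (Flna), a cross-linker of actin in most cells, measured 90.5 and 117 FPKM against 56.5 and 76.9, so the fresh-frozen libraries differed from one another as well. Synm and Synpo2, which link desmin or actin to the Z line and the dense body, had log2 fold changes of 0.32 and 0.38 without overlap. Actinin 1 (Actn1) measured 24.8 and 34.5 FPKM in RVC and 19.9 and 24.7 FPKM in fresh frozen. RVC 1 and fresh frozen 2 were nearly level, and they overlapped after scaling of the libraries though not in the deposited values. Nexn, an actin-binding Z-line protein, measured 5.59 and 4.04 FPKM in RVC against 4.48 and 4.72 in fresh frozen and did not keep 1 direction over the alternatives. Ldb3, a Z-line protein of striated muscle, was low throughout, at 1.48 and 1.53 FPKM in RVC against 1.73 and 2.14 in fresh frozen.

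**Figure D2:**
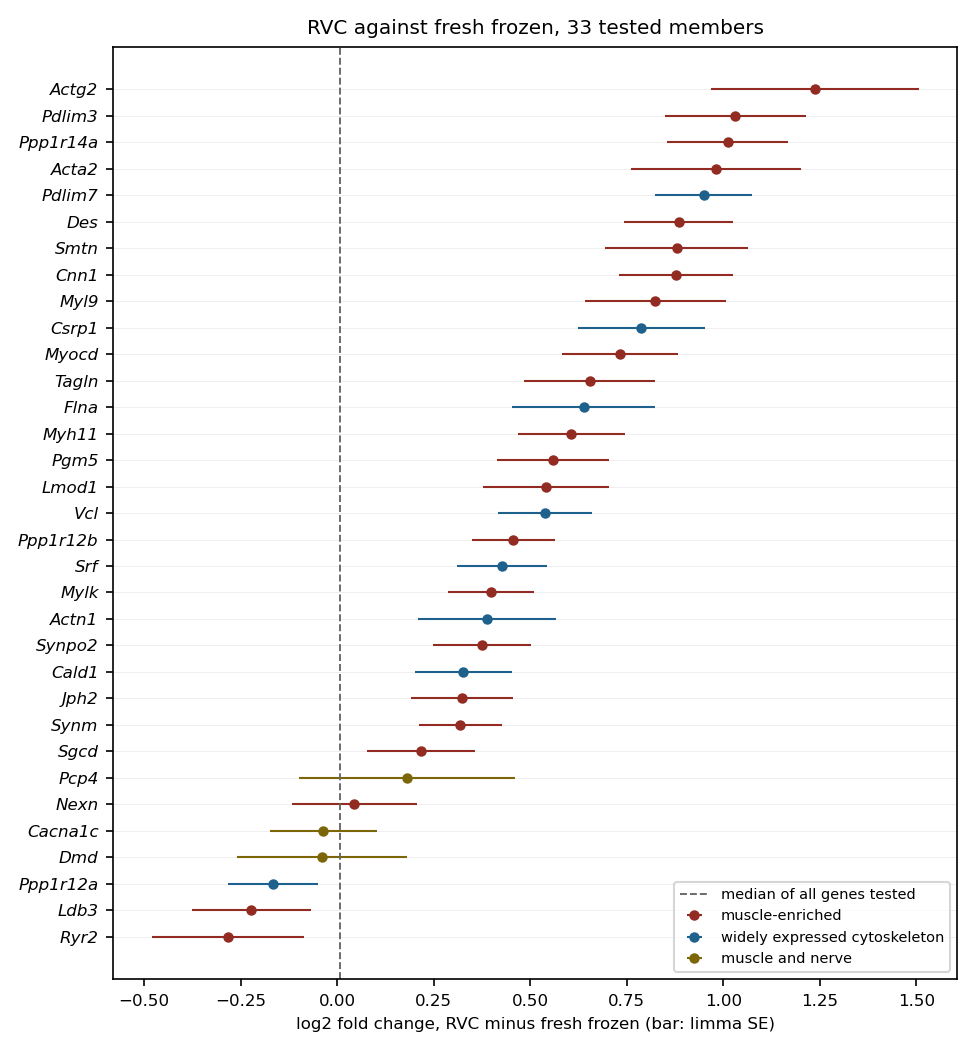
Log2 fold change of RVC over fresh frozen for the 33 tested members with the limma standard error, coloured by class; the dashed line is the median of all genes tested. Actg2 is at the top with 1.24 and Ryr2 at the bottom with -0.28, and muscle-enriched and widely expressed genes are mixed along the order.

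At the membrane, vinculin (Vcl), which joins actin to adhesion sites, measured 18.7 and 22.05 FPKM in RVC and 13.7 in each fresh-frozen library, a log2 fold change of 0.54 (SE 0.12). Pgm5, a partner of dystrophin and of adhesion plaques, measured 29.1 and 38.7 FPKM against 22.6 and 22.5. In both genes the fresh-frozen libraries were nearly equal and RVC 2 was the highest. Sgcd, a sarcoglycan, had a mean of 2.45 FPKM and a log2 fold change of 0.22 (SE 0.14). Dystrophin (Dmd), which ties the cytoskeleton to that complex, measured 5.96 and 6.91 FPKM in RVC against 5.08 and 8.60 in fresh frozen, and the groups overlapped.

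Calcium handling genes were low. The 5 members ranged from a mean of 0.852 FPKM for phospholamban (Pln), the brake on the calcium pump, to 7.66 FPKM for Pcp4, a calmodulin-binding peptide. Junctophilin 2 (Jph2), which holds the reticulum to the plasma membrane, measured 4.09 and 3.75 FPKM in RVC against 3.01 and 2.88 in fresh frozen. The ryanodine receptor Ryr2, a calcium release channel, measured 1.26 and 1.18 FPKM against 1.29 and 2.19, so fresh frozen 2 alone was high. The L-type calcium channel gene Cacna1c measured 2.95 and 3.02 FPKM in RVC against 2.91 and 3.29 in fresh frozen. The median log2 fold change of the 4 tested members was 0.072, with 1 higher and 1 lower without overlap. Over all genes 26.5% were higher and 26.6% lower without overlap, so 1 of 4 on each side is near those shares. A difference from the filament genes was not tested.

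As gene sums, both transcription factors lay higher in RVC. Srf measured 11.7 and 11.4 FPKM in RVC and 8.09 and 8.68 FPKM in fresh frozen, a log2 fold change of 0.43 (SE 0.12, limma adjusted p 0.156). Myocd measured 2.51 and 2.52 FPKM against 1.27 and 0.977, a log2 fold change of 0.73 (SE 0.15, limma adjusted p 0.129). In both genes the RVC libraries were nearly equal, unlike the actins. A Myocd transcript of 377 nt without an annotated coding sequence (ENSMUST00000150823) measured 1.43 and 1.49 FPKM in RVC against 0.481 and 0.241 in fresh frozen. It carried 57.0% and 59.2% of the gene in RVC and 37.7% and 24.6% in fresh frozen. Its confidence bounds overlapped between the groups, with 0.246 to 2.62 FPKM in RVC 1 and 0 to 1.16 in fresh frozen 1. The 983-codon form (ENSMUST00000108695) measured 1.08 and 0.951 FPKM against 0.793 and 0.652. The difference in the Myocd sum thus lay more in the short transcript than in the coding form. Neither transcript reached the mean of 1 FPKM needed for a test.

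Muscle-enriched members were then set beside the widely expressed ones. The median log2 fold change was 0.58 over 22 muscle-enriched members, 0.48 over 8 widely expressed members and -0.036 over the 3 members of muscle and nerve. Non-overlap with RVC higher was seen in 19 of 22, 6 of 8 and 0 of 3, beside 26.5% of all genes. Relative to the mean of each gene, the muscle-enriched median exceeded the widely expressed median by 0.069 in RVC 2 and 0.040 in fresh frozen 1 and fell short of it in RVC 1 (-0.010) and fresh frozen 2 (-0.13). The difference between the class medians, 0.099, changed sign without RVC 2 (-0.020) and when each gene was represented by its most abundant transcript (-0.062). No test of this difference was run.

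Cytoskeletal genes outside muscle gave lower values. Over a list of 23 non-muscle cytoskeletal genes the median was 0.22, with 15 higher and 0 lower in RVC without overlap, and 5 at an unadjusted limma p under 0.05, all higher. As shares of the list these are 65.2% and 21.7%, against 26.5% and 9.38% of all genes. The most abundant of them, Actb, measured 2758 and 2526 FPKM in RVC and 2099 and 1974 FPKM in fresh frozen. Vimentin (Vim), the intermediate filament of mesenchymal cells, had the largest log2 fold change of that list, 0.67 (limma adjusted p 0.129). By contrast with Actg2 and Acta2, Actb was lower in RVC 2 than in RVC 1.

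**Figure D3:**
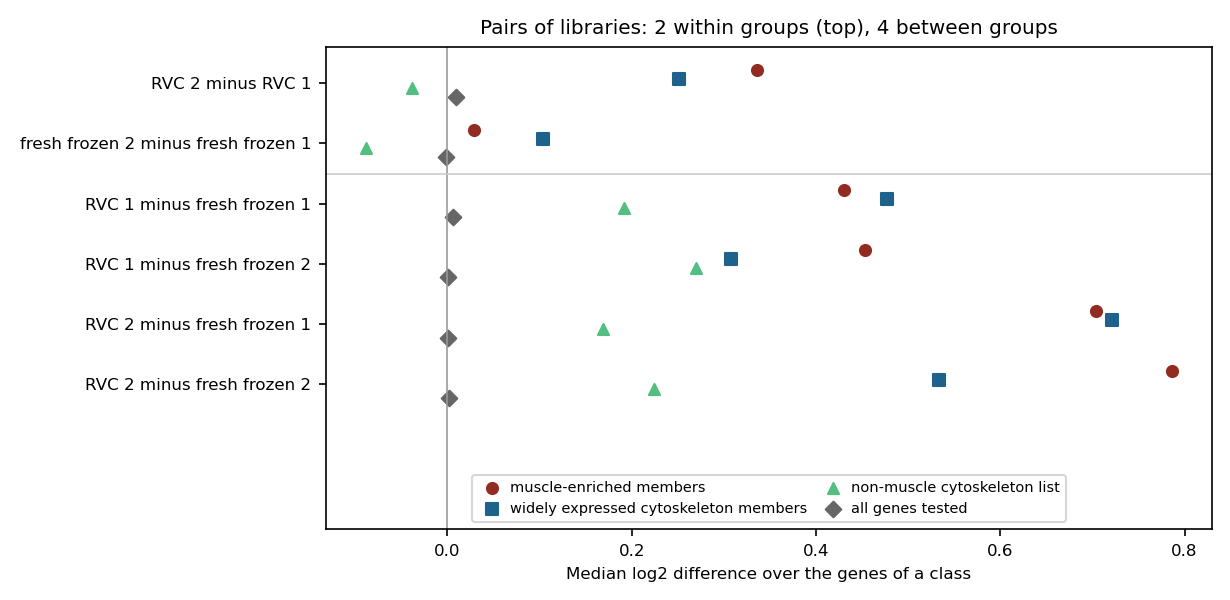
Median log2 difference in each of the 6 pairs of libraries over the muscle-enriched members, the widely expressed members, the list of 23 non-muscle cytoskeletal genes and all genes tested. Between groups the member medians lie from 0.31 to 0.79, and between the RVC libraries they stand at 0.34 and 0.25, while all genes stay near 0.

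The members also differed within the RVC group. RVC 2 exceeded RVC 1 in 27 of 33 members, with a median log2 difference of 0.34 over muscle-enriched and 0.25 over widely expressed members. Over the non-muscle cytoskeletal list the same median was -0.039 and over all genes 0.0095. Fresh frozen 2 less fresh frozen 1 gave 0.029 for muscle-enriched and 0.10 for widely expressed members. Over the 4 pairs made of 1 library from each group, the muscle-enriched median ran from 0.43 to 0.79 and the widely expressed median from 0.31 to 0.72. Summed over the 34 members, the levels came to 1944 FPKM for RVC 1 and 2756 FPKM for RVC 2, against 1305 FPKM for fresh frozen 1 and 1362 FPKM for fresh frozen 2. Of the 25 members that were higher in RVC without overlap, 22 had their highest value in RVC 2 and 3 in RVC 1. In 9 of these 25 the RVC libraries differed from one another by more than the gap that separated the groups.

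Other smooth muscle genes were counted from 2 further lists. Among 24 tested genes of filaments, adhesion and the dystrophin complex, the median log2 fold change was 0.44, with 17 higher and 0 lower in RVC without overlap and 15 at an unadjusted limma p under 0.05, all higher. As shares of the list these are 70.8% and 62.5%, against 26.5% and 9.38% of all genes. Tropomyosin 2 (Tpm2), the beta tropomyosin of muscle, measured 267 and 416 FPKM in RVC and 190 and 182 FPKM in fresh frozen (log2 fold change 0.85, limma adjusted p 0.135). The small heat shock gene Hspb7 measured 3.60 and 4.19 FPKM against 1.61 and 1.52, and had the largest log2 fold change of that list, 0.94. Tpm2 had the same order of libraries as Acta2, and Myl6, the essential myosin light chain shared with other cells, had a log2 fold change of 0.24.

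Calcium, channel and signalling genes of smooth muscle stayed closer to the median of all genes. Of 18 tested, 6 were higher and 3 lower in RVC without overlap, 2 had an unadjusted limma p under 0.05, and the median log2 fold change was 0.11. The counts of non-overlap are 33.3% and 16.7% of the list, against 26.5% and 26.6% of all genes, and the 2 genes are 11.1%, against 9.38% of all genes higher in RVC at that p. Those 2 were the calcium channel subunit gene Cacnb2 (log2 fold change 0.45) and the calcium pump gene Atp2b4 (0.41). The lower ones included Pde5a, which degrades cyclic GMP, with a log2 fold change of -0.20. In both lists 0 genes passed the adjusted threshold in limma.

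Markers of other cells of the gut wall were read beside the members. All 5 endothelial markers lay higher in both RVC libraries (median log2 fold change 0.44), where 26.5% of all genes did so. Their summed levels were 21.3 and 20.6 FPKM in RVC against 11.8 and 13.6 in fresh frozen. The 8 epithelial markers had a median of 0.085 and sums between 4608 and 5782 FPKM, with the highest and the lowest both in fresh frozen. Fibroblast markers (5 tested, median 0.081), pericyte markers (3 tested, -0.0051) and mesothelial markers (4 tested, -0.074) had medians near that of all genes, and enteric neuron markers (7 tested) had a median of 0.26. The pericyte marker Kcnj8 was higher in RVC without overlap (log2 fold change 0.55). The mesothelial markers Wt1 (-0.36) and Lrrn4 (-0.16) were lower without overlap. The other fibroblast, pericyte and mesothelial markers tested overlapped between the groups. Endothelial markers were thus on the same side as the smooth muscle members. Their sum was not higher in RVC 2 than in RVC 1, but it is weighted by Pecam1 (10.9 FPKM in RVC 1, 9.23 in RVC 2). Cdh5, Kdr and Egfl7 were higher in RVC 2 than in RVC 1, and Pecam1 and Vwf were lower. The part of endothelial cells in the result was not tested. Of 7 skeletal muscle markers measured, the 1 tested was Ckm, with 3.81 and 4.76 FPKM in RVC against 2.58 and 1.86 in fresh frozen, while the striated myosins were low as given above. Of 5 heart muscle markers the 1 tested, Tnnt2, measured 4.91 and 5.87 FPKM in RVC and 4.82 and 2.37 FPKM in fresh frozen, higher in RVC without overlap (log2 fold change 0.53, limma adjusted p 0.295).

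Within the set, fold changes differed by level and by transcript length. The median log2 fold change was 0.79 over the 11 members at a mean of 50 FPKM or more, 0.54 over the 11 between 10 and 50 FPKM and 0.18 over the 11 under 10 FPKM. Over all genes in the same ranges it was 0.050, 0.0083 and -0.0014. By length of the main transcript, it was 0.76 over 16 members under 2500 nt, 0.43 over 9 members of 2500 to 5000 nt and 0.35 over 8 of 5000 nt or more. Over all genes in these length ranges it was 0.014, 0.0030 and -0.014. Some members were placed in the shortest range by a short model beside longer forms. These include Mylk (1620 nt), Ppp1r12b (1521 nt), Cald1 (1063 nt) and Myocd (377 nt), so the order by length is uncertain. Spearman's rank correlation across members was 0.62 with mean FPKM and -0.38 with length, given as descriptions since genes share these libraries. Across all genes it was 0.022 and -0.052. The pseudocount narrows fold changes at the low end of this order, and with a pseudocount of 0.1 the member median was 0.57.

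Single transcripts of the members were compared in the same model. The members had 250 transcripts in the files, of which 79 were tested and 85 carried at least 10% of their gene in some library. In 48 of the 79 both RVC libraries were higher, against 25.4% of all 24188 transcripts tested, and in 6 both were lower, against 24.9%. With limma, 0 of the 79 had an adjusted p under 0.05 (0.00413% of all transcripts did), and 36 had an unadjusted p under 0.05 (15.6% of all). Cufflinks divides reads among overlapping transcripts by likelihood, so values of isoforms are less certain than gene sums, and 35 of the 85 models had the same ends in GENCODE vM39.

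Isoforms that differ by a known muscle exon are shown by that exon, because in Actn1 and Vcl the exon distinguishes the muscle from the general form. For Myh11, the heavy chain of smooth muscle myosin, the exon distinguishes forms of that myosin. In the 4 runs below, 5′ to 3′ on the strand of the gene in GRCm39, the capitals are the exon, at the coordinates given, and the lower case is 10 intronic bases on each side.
Actn1 exon of the 887-codon form, chr12:80216957-80217022, minus strand: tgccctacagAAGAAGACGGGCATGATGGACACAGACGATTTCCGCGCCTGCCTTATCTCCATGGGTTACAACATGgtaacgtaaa
Actn1 exon of the 892-codon form, chr12:80217460-80217540, minus strand: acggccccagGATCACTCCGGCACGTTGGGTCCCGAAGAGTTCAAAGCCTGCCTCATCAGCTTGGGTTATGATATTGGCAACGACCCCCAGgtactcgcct
Myh11 insert of the 1979-codon form, chr16:14066444-14066464, minus strand: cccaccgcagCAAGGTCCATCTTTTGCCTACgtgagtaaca
Vcl exon of the 1134-codon form, chr14:21077151-21077354, plus strand: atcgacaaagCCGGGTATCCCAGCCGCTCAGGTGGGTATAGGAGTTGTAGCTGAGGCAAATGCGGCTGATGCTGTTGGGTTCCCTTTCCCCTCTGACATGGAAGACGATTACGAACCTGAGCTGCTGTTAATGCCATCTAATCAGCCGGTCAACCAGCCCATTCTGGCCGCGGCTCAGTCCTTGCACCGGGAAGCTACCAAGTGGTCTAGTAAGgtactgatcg
The Actn1 exons of 66 and 81 nt exclude one another in these forms and encode part of the calcium-binding region, the shorter one being known from smooth muscle. The Myh11 exon of 21 nt adds 7 codons to the myosin head and marks the SM-B forms of visceral muscle. The Vcl exon of 204 nt adds 68 codons and makes metavinculin, the muscle form of vinculin.

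The smooth muscle form of Actn1 (ENSMUST00000167327) measured 12.4 and 16.8 FPKM in RVC and 7.36 and 8.22 FPKM in fresh frozen. The general form (ENSMUST00000021554) measured 9.61 and 12.8 FPKM against 8.55 and 11.9. Hence the log2 ratio of the smooth muscle to the general form was 0.37 and 0.40 in RVC and -0.22 and -0.53 in fresh frozen. Although the gene sum of Actn1 overlapped between groups, this ratio did not, and the smooth muscle form had a log2 fold change of 0.81 against 0.12 for the other.

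The metavinculin transcript (ENSMUST00000224380) measured 4.05 and 6.02 FPKM in RVC and 1.81 in each fresh-frozen library. Vinculin without the exon (ENSMUST00000022369) measured 13.9 and 15.3 FPKM against 11.2 and 11.1. The log2 ratio was -1.78 and -1.35 in RVC and -2.64 and -2.63 in fresh frozen, so the muscle form was the minor one in all 4 libraries, with a larger share in RVC than in fresh frozen. In the files the metavinculin model is a fragment of 446 nt that reaches 135 nt into the exon, so its level rests on a short stretch. Its confidence bounds in RVC 1 (2.30 to 5.80 FPKM) overlapped those in fresh frozen 1 (0.551 to 3.06) and fresh frozen 2 (0.733 to 2.88). The bounds in RVC 2 (3.89 to 8.15 FPKM) lay above both.

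For Myh11, the main form (ENSMUST00000090287, 1972 codons), which lacks the insert, carried 68.6% ± 4.07 (SD, n = 4) of the gene. The form with the insert (ENSMUST00000231567) measured 18.5 and 31.3 FPKM in RVC against 14.3 and 9.58 in fresh frozen. Its log2 ratio to the main form was -2.17 and -1.72 in RVC and -2.19 and -2.85 in fresh frozen, so RVC 1 and fresh frozen 1 were level. The form with the short tail known as SM2 (ENSMUST00000230397, 1938 codons) also lacks the insert. Its log2 ratios to the main form were -1.93 and -2.15 in RVC and -2.46 and -2.32 in fresh frozen.

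Caldesmon splits by a long exon into the heavy form of smooth muscle (ENSMUST00000115027, 768 codons) and the light form of other cells (ENSMUST00000115026, 536 codons). The log2 ratio of heavy to light was -0.74 and -0.94 in RVC and -1.27 and -0.97 in fresh frozen, with RVC 2 and fresh frozen 2 nearly equal. Neither form on its own separated the groups, since the heavy form measured 6.85 and 8.25 FPKM against 6.56 and 7.71, and the light form 11.4 and 15.9 against 15.8 and 15.1. The main Cald1 transcript (ENSMUST00000136907) measured 16.8 and 20.2 FPKM in RVC against 17.9 and 14.7 in fresh frozen. It starts inside the long exon of the heavy form and was counted with neither form. A further transcript of 956 nt (ENSMUST00000142512), also counted with neither, measured 7.06 and 9.74 FPKM in RVC against 4.22 and 3.81 in fresh frozen. Of the Cald1 transcripts that carried at least 10% of the gene, it alone separated the groups (log2 fold change 0.89). The balance of heavy to light is therefore uncertain. Telokin, a short protein made from an internal start of Mylk (ENSMUST00000231589, 159 codons), was about as abundant as the full kinase (ENSMUST00000023538, 1950 codons), with log2 ratios of 0.20 and 0.12 in RVC and -0.10 and 0.066 in fresh frozen. For Synm the ratio of the long to the short form overlapped between groups. For Ppp1r12b a short form of 186 codons exceeded the 976-codon form in all 4 libraries, by 0.53 to 1.14 on the log2 scale.

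**Figure D4:**
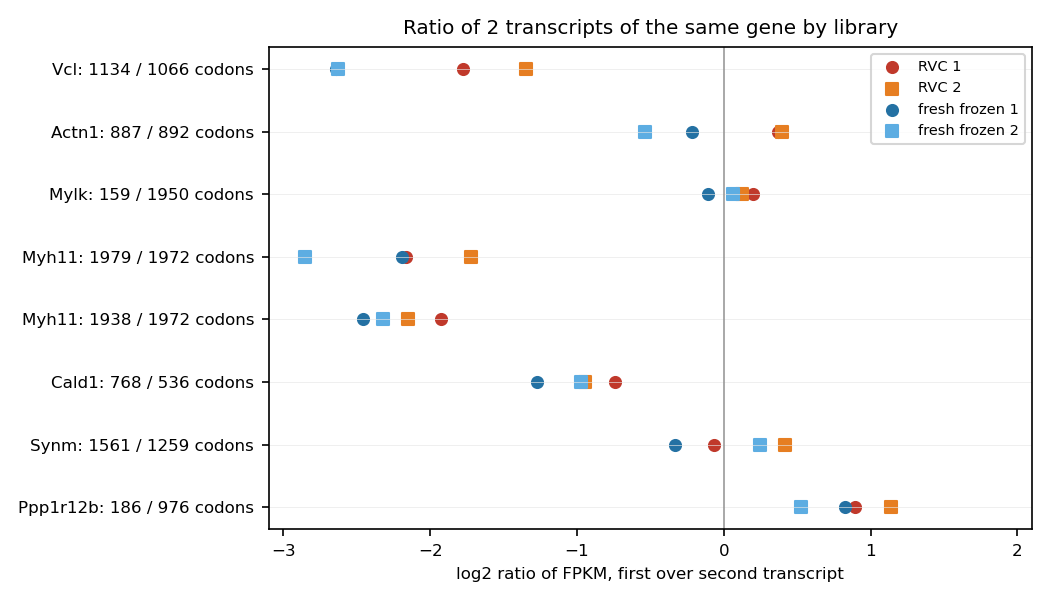
Log2 ratio of FPKM of 2 transcripts of the same gene in each library, labelled by the number of codons of the first and the second transcript. The RVC points lie to the right of the fresh-frozen points for every pair but Synm, and farthest for Vcl and Actn1. The side depends on which transcript was put first, which was set by hand.

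In 7 of the 8 pairs the ratio was higher in both RVC libraries than in both fresh-frozen libraries, with differences of group means from 0.18 for Mylk to 1.07 for Vcl. The pairs were picked for their known biology and after their values could be seen. Which transcript of a pair came first was also set by hand, and the reverse order would turn a higher ratio into a lower one. The common direction of the pairs therefore depends on that choice. The ratios were not tested, and with 2 libraries in each group they remain descriptions. No share of such ratios over all genes was at hand for comparison. Both Myh11 pairs have the same second transcript. The nearest libraries of the groups were almost level for the Myh11 insert (-2.17 and -2.19) and for Cald1 (-0.94 and -0.97). Exons of another gene on the opposite strand overlap 17 of the 34 members, Acta2, Cnn1, Tagln, Smtn and Vcl among them, and whether strand was used in counting is not given in the sources used here.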

How the data were processed

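RNA from intestinal tissue was depleted of ribosomal RNA, made into libraries with the KAPA HyperPrep kit and sequenced on an Illumina NextSeq, per the labels' protocols. Per the submitters' processing notes, the authors used TopHat2 2.1.1 and Cufflinks 2.2.1 with GRCm39. An annotation release and a strand setting were not given in the sources used here. The deposited values are FPKM per transcript, with confidence bounds, and coverage, a signal of reads per base, per the file headers; coverage served for relative depth only. Starts in the files were counted from 0 and are printed counted from 1.

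FPKM was summed per gene and scaled by median ratio (factors 0.991 to 1.01), and log2(scaled FPKM + 1) was fitted with limma 3.58.1 in R 4.3.3 (two-sided, with a mean-variance trend, without covariates, over the 4 libraries). Genes needed a mean of 1 FPKM, a longest transcript of 300 nt and status OK in every library. Adjustment was by Benjamini-Hochberg over all 13775 genes or 24188 transcripts, with a threshold of 0.05. Levels in the text are deposited FPKM without scaling. The fit was tested on simulated data. A comparison of 2 libraries with 2 has little power, and FPKM from a likelihood model gives no read counts.

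The members, their classes and the lists were chosen with earlier results of these data known, so lists are described by counts and medians and not tested. All 34 members are accounted for; transcripts named carry at least 10% of their gene in some library. Tubb3 and Acta1, listed as markers, were not analysed here. Alternatives were other pseudocounts, scalings, filters, gene sums and fits, a block on sample number, and each library left out. Tables were handled in pandas 2.3.3, figures in matplotlib 3.10.9. Sample numbers are shared between groups in the labels; the deviations of same-numbered libraries from their group means correlated at -0.13, so the numbers were not taken to pair libraries.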

Additional observations from a re-analysis of the deposited data

How the results depend on the processing

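Over the alternatives, the median log2 fold change stayed between 0.40 and 0.65 for all members and between 0.42 and 0.74 for muscle-enriched members, with the lowest values without RVC 2 and the highest without RVC 1. For widely expressed members it lay between 0.38 and 0.63 with a library left out and moved to 0.64 with only the most abundant transcript of each gene. The excess of muscle-enriched over widely expressed members, 0.099, moved to 0.26 with a mean of at least 5 FPKM and to -0.062 with the most abundant transcript, and with a library left out it ran from -0.020 (without RVC 2) to 0.22 (without fresh frozen 1). The cause of these moves was not tested.

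The number of genes past the threshold, 5, was 2 with a mean of at least 5 FPKM and 1 with the most abundant transcript. It was 0 with no filter on low values, 0 with no mean-variance trend and 0 with sums that omit transcripts under 300 nt, against 2530 genes at an unadjusted p under 0.05 in the fit as reported. It ran from 8 to 37 with a library left out, where a lone library is assumed to vary like the other group. The number of transcripts past it, 1, was 0 with no filter, 6 with a mean of at least 5 FPKM, 7 with no length minimum, and 0 with any library left out.

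The sample numbers were also used as a replicate block. That gave 123 genes, 6 of them members, and 1 transcript. The limma adjusted p of these members was then 0.00846 for Actg2, 0.0146 for Pdlim7 and 0.0223 to 0.0296 for the other four. The crossed pairing, added after the data were seen because same-numbered libraries deviated in opposite directions, gave 12 genes, 0 of them members, and 1 transcript.

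Of 518 values of single members under an alternative, 501 kept direction and side of the threshold, 7 passed it and 10 changed sign. Nexn (0.045; 0.24 without RVC 2) went to -0.15 without RVC 1, -0.0015 without fresh frozen 1, -0.10 with short transcripts left out and -0.056 with the most abundant transcript. Pcp4 (0.18; 0.55 without RVC 1) went to -0.19 without RVC 2 and -0.13 without fresh frozen 2. Cacna1c (-0.036; -0.12 without fresh frozen 1) went to 0.039 without fresh frozen 2. Dmd (-0.039; -0.38 without fresh frozen 1) went to 0.050 without RVC 1, 0.30 without fresh frozen 2 and 0.039 with the most abundant transcript.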
